A study of Caenorhabditis elegans with 4 samples.

Results

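The regions described here are autosomal UNC-39 ChIP-seq peaks in shared promoters, stretches of DNA that lie in front of 2 or more protein-coding genes at once. A peak of the pooled ce11 list on chromosomes I to V was taken when its summit lay in the promoter windows of at least 2 different protein-coding genes. A window ran from 1000 bp upstream to 200 bp downstream of a transcript start, on either strand. This gave 443 peaks, which are 4.32% of the 10244 autosomal peaks, out of 12797 peaks in the whole pooled list. Of the other autosomal peaks, 2711 had a summit in the promoter of a single gene and 7090 lay outside every promoter window.

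Chromatin came from whole Caenorhabditis elegans at the L3 larval stage, pooled males and females of unknown age, in 4 biological replicates that form a single group. All worms were of strain OP186, unc-119(ed3) III with the integrated wgIs186 transgene, so every library carries the same mutation and the same transgene. The transgene makes UNC-39 with GFP and FLAG at its C terminus, the antibody entry reads unc-39, and the chromatin was sheared with a sonicator. The labels do not say which promoter drives the tagged copy. Whole animals were used, so the cells in which a region was bound cannot be told apart.

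UNC-39 is a SIX-family homeodomain transcription factor known in the worm for roles in mesoderm differentiation and in the migration of cells and axons. Genes that lie head to head are read from opposite strands and share the DNA between their starts, which is common in the compact worm genome, above all among broadly expressed genes. Many worm transcripts receive a spliced leader in place of their own first bases, so an annotated start can lie downstream of the place where transcription begins.

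The 8 shared-promoter peaks that were also in the thresholded list, which keeps peaks by their irreproducible discovery rate (a measure of how far replicates differ in their ranking), are printed here because they are the strongest 8 of the 443. Each line gives the 101 bp centred on the summit, on the plus strand, from the RefSeq sequence of WBcel235 (the same assembly as ce11). Capitals mark matches on either strand to the word CGTCTC, to the word ACGCAG, to the word ACACGC, to the word CCTGCG and to the word ATACACT, where adjoining or overlapping matches run together. The first 4 words came from an earlier analysis of these peaks, and ATACACT was picked after these sequences were seen, so none of them is independent of the data.
rpl-15 and K11H12.8 (chrIV:654865-654965): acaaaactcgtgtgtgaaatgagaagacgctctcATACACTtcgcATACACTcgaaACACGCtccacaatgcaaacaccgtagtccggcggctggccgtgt
tasp-1 and K01G5.10 (chrIII:10759184-10759284): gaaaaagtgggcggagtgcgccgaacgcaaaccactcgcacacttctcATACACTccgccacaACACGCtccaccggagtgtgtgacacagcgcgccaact
Y75B8A.23 and tim-1 (chrIII:12250658-12250758): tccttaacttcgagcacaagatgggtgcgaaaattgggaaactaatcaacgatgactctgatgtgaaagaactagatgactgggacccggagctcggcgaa
rps-1 and ifet-1 (chrIII:4475598-4475698): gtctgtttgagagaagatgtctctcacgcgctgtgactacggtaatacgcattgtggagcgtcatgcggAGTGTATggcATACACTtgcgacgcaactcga
iff-2 and F54C9.14 (chrII:8561428-8561528): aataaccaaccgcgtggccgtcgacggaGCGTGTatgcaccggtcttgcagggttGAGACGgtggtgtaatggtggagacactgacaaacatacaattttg
Y17G9B.5 and rpl-20 (chrIV:4750015-4750115): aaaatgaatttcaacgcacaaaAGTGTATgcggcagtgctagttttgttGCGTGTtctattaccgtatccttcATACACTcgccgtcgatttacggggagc
tag-340 and nhl-2 (chrIII:4899854-4899954): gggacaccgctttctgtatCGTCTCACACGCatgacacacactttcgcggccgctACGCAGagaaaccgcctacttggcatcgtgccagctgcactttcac
drr-2 and set-16 (chrIII:13643634-13643734): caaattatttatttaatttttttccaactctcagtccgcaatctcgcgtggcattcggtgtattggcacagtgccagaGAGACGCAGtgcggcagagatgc
ACACGC occurred in 5 of these 8 windows and CGTCTC in 3. ATACACT occurred in 4, at rpl-15, tasp-1, rps-1 and rpl-20, more than once in 3 of them; CCTGCG occurred in 0. The Y75B8A.23 and tim-1 window held no match.

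All 8 peaks lay between genes read in opposite directions, except that the Y75B8A.23 summit was 48 bp inside that gene, and 3 of the 8 were promoters of cytosolic ribosomal protein genes. The highest signal, 67.5, belonged to the peak between rpl-15, a protein of the large ribosomal subunit, and K11H12.8, annotated as a growth hormone-inducible transmembrane protein (chrIV:654733-655096). Its summit was 339 bp upstream of rpl-15 and 475 bp upstream of K11H12.8. The signal is the authors' own value for each peak, and it serves here for ranking inside 1 list. The peak ranked 17, 1951, 82 and 26 among the autosomal peaks of replicates 1 to 4, so replicate 2 stood apart from the other replicates.

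At rps-1, a protein of the small ribosomal subunit, the summit was 270 bp upstream and 498 bp from ifet-1, a translational repressor (chrIII:4475466-4475829, signal 57.98). That peak ranked 3 in replicate 4, 79 in replicate 1, 932 in replicate 3 and 23016 in replicate 2. The rpl-20 peak lay 287 bp upstream of that large-subunit gene and 175 bp upstream of Y17G9B.5, annotated as a mitochondrial signaling intermediate of the Toll pathway (chrIV:4749883-4750246, signal 50.8). It ranked 8 in replicate 4 and 15 in replicate 3, but 7664 in replicate 1, and no peak of replicate 2 overlapped it. All 3 ribosomal protein promoters were therefore high in replicates 3 and 4 and outside the 1000 strongest of replicate 2.

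Another of these peaks lay before iff-2, an initiation factor 5A gene, 111 bp upstream of its start and 824 bp upstream of F54C9.14 (chrII:8561296-8561659, signal 55.04). It ranked 40, 3377, 10 and 181 in replicates 1 to 4. The drr-2 peak lay 114 bp from this gene for an RNA-recognition-motif protein and 232 bp from set-16, annotated as a PHD-type domain protein and known as a histone methyltransferase gene (chrIII:13643502-13643865, signal 47.8). Its ranks were 56, 2546, 3154 and 145, high in replicates 1 and 4 only. The widest of the 8 promoters, with 1423 bp between starts, was that of tag-340, a START domain protein, and nhl-2, a B box-type protein (chrIII:4899722-4900085, signal 48.3). It ranked 18, 5839, 396 and 218.

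The remaining 2 of the 8 were the strongest of the set in replicate 2. The summit at tasp-1, a homolog of the protease taspase, was 73 bp upstream of its start and 712 bp upstream of K01G5.10, a haloacid dehalogenase-like gene (chrIII:10759052-10759415, signal 63.5). It ranked 8, 48 and 154 in replicates 1 to 3 and 6079 in replicate 4. The summit between Y75B8A.23, a protein kinase domain gene, and tim-1, the worm homolog of timeless, lay within 300 bp of sls-2.8, a spliced leader RNA gene (chrIII:12250526-12250889, signal 58.5). It ranked 46 in replicate 1, 9 in replicate 2 and 1004 in replicate 4, and no peak of replicate 3 overlapped it. Counted together, 7, 2, 6 and 6 of the 8 were among the 1000 strongest autosomal peaks of replicates 1 to 4, and none of them in all 4. Over all autosomal pooled peaks the shares were 8.23%, 8.68%, 5% and 5.63%. The 8 were selected by irreproducible discovery rate from these same libraries, so their high ranks are not independent of the selection and are only a description.

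**Figure D1:**
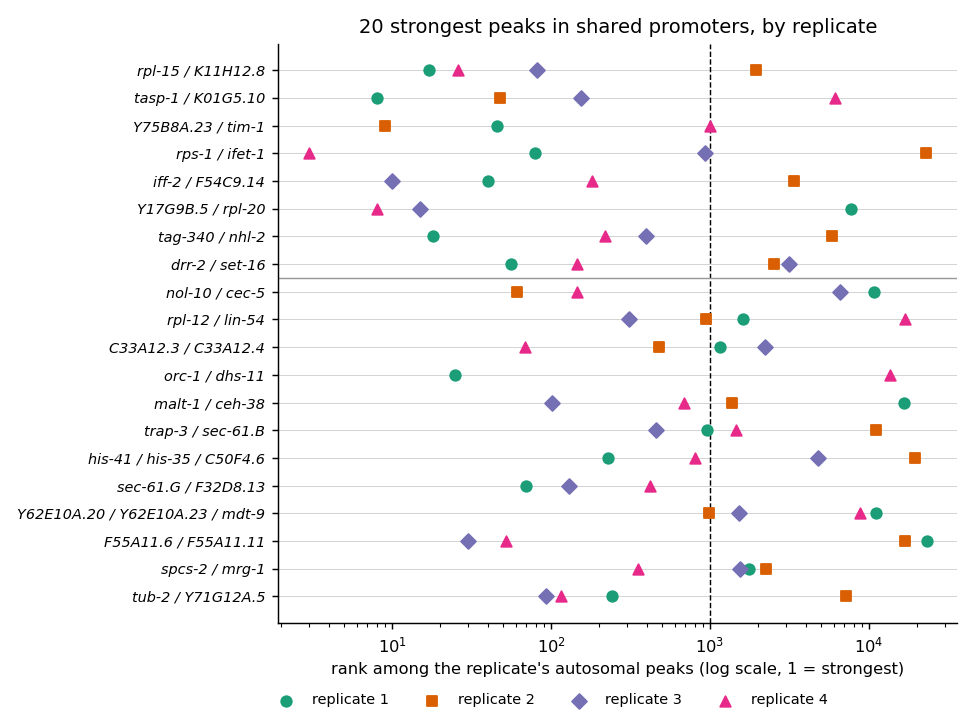
Rank of the 20 strongest shared-promoter peaks (rows, named by their genes, in order of pooled signal) among the autosomal peaks of each replicate, on a log axis where 1 is the strongest. The dashed line marks rank 1000, the line across separates the 8 peaks of the thresholded list from the 12 below, and a missing symbol means that no peak of that replicate overlapped; replicate 2 lies to the right of rank 1000 for 5 of the upper 8 and has no symbol for rpl-20.

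The 12 peaks next in signal, from 39.9 to 35.9, were not in the thresholded list, whose last shared-promoter peak had a signal of 47.8. Of these, 8 were head to head and 4 lay before genes on the same strand. They included nol-10, whose yeast counterpart acts in ribosome biogenesis, with cec-5, a chromodomain gene (39.9), and rpl-12 with lin-54, a subunit gene of the repressive DRM complex (39.4). Genes named for translocon and signal peptidase subunits were at 3 peaks, trap-3 with sec-61.B (37.9), sec-61.G with F32D8.13 (36.9) and spcs-2 with mrg-1 (36.2). That grouping was made after the names were seen and was not tested. In the vesicle traffic and secretion list described below, 14 of 92 genes (15.2%) had a shared-promoter peak, against 5.06% over all genes. The others included orc-1, a subunit of the origin recognition complex, with dhs-11 (38.4), malt-1 with ceh-38, a one cut homeobox gene (38.4), the histone genes his-41 and his-35 with C50F4.6 (37.3) and tub-2 with Y71G12A.5 (35.9). The rest were C33A12.3 with C33A12.4 (39.2), Y62E10A.20 with Y62E10A.23 and mdt-9 (36.7), and F55A11.6 with F55A11.11 (36.5). GC content within 50 bp of these 12 summits ran from 20.8% at malt-1 and ceh-38 to 61.4% at the histone genes, while the upper 8 ran from 44.6% to 59.4%.

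In depth and support the lists differed, which bears on every value here. The relaxed lists hold peaks and background together and serve as rankings; they had 24117, 24059, 10898 and 24114 autosomal peaks in replicates 1 to 4. The files give no read numbers, so the depth of each library is unknown and precision could not be weighed by it. Intervals below are exact 95% Clopper-Pearson intervals and cover counting error over peaks only. The pooled list was made from the same 4 libraries as the replicate lists, and its peaks are not replicates: the 443 peaks fall on 424 sets of genes, 18 of which hold more than 1 peak.

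Shared-promoter peaks stood higher in the pooled ranking than other autosomal peaks. In the thresholded list were 8 of 443 (1.81%, interval 0.783 to 3.53), where the share over all autosomal peaks was 0.547%, and it was 0.775% for single-gene promoter peaks and 0.381% outside promoters. Among the 1000 strongest autosomal peaks were 77 of 443 (17.4%, interval 13.97 to 21.2), beside a background of 9.76% over all autosomal peaks, 11.3% for single-gene promoters and 8.72% outside. The median signal percentile was 57.7 for shared promoters, 51.7 for single-gene promoters and 48.8 outside. In signal itself the medians were close, at 20.3, 19.7 and 19.4, and the upper quartiles were 24.4, 22.98 and 22.4. The gap in median percentile between shared and single-gene promoters varied with the distance to the nearest start. Within 100 bp the medians were 61.9 and 49.4, and from 600 to 1000 bp 65.5 (25 peaks) and 47.6. From 100 to 200 bp they were 55.2 and 54.4, and from 200 to 400 bp 58.4 and 57.9. From 400 to 600 bp the order was reversed, at 37.2 and 51.5. By the deposited q-value column, read as −log10 of q, 7 of the 443 peaks passed 0.05 and the median q was 0.916.

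**Figure D2:**
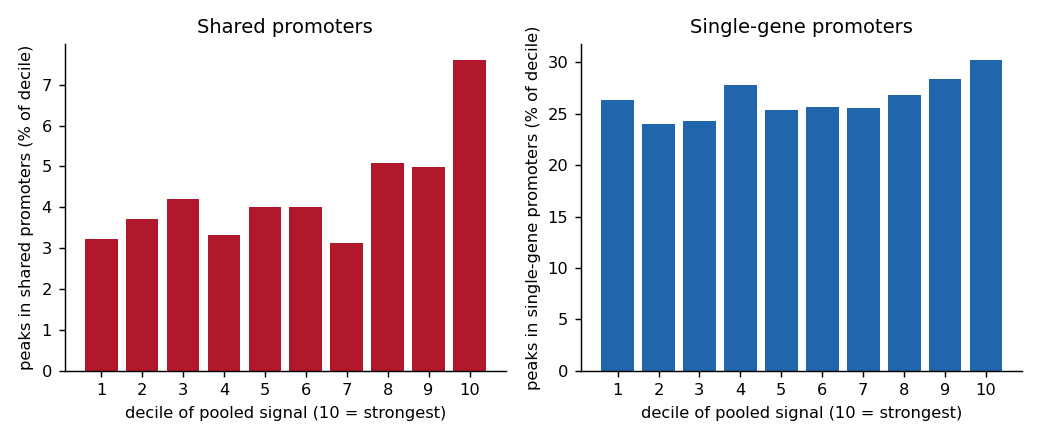
Share of autosomal pooled peaks whose summit lay in a shared promoter (left) or in the promoter of a single gene (right), as a percent of the peaks in each decile of the list by signal, where 10 is the strongest. The shared share was 3.22% in the lowest decile and 7.62% in the highest, and the single-gene share 26.4% and 30.3%.

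Per base, the same order was seen. DNA in at least 2 promoter windows makes up 3.08% of the autosomes and single-gene windows 24.1%. Shared windows held 174 pooled peaks per megabase, single-gene windows 136 and the rest 118. For the 1000 strongest peaks the densities were 30.3, 15.3 and 10.3 per megabase. The 56 autosomal peaks of the thresholded list were divided into 8 in shared promoters (14.3%), 21 in single-gene promoters and 27 outside.

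By chromosome, III held 5 of the 8 thresholded peaks among its 85 shared-promoter peaks, IV held 2 of 88 and II held 1 of 71, while I held 0 of 81 and V 0 of 118. Of all 1866 peaks of chromosome III, 21 were in the thresholded list (1.13%), also the highest share among the autosomes. Counts of 0 allow shares of up to 3.70% on I and 2.54% on V, taking 3 counts as the most that a count of 0 allows. The exact intervals reach 4.45% on I and 3.08% on V. Among the 1000 strongest, a larger group, were 21.6% of the shared-promoter peaks of IV, 21.2% of III, 17.8% of V, 13.6% of I and 11.3% of II, with intervals that overlap. On the X chromosome, which was not part of the set, 35 of 2529 peaks (1.38%) lay in shared promoters and 0 of the 35 were thresholded, which allows up to 8.57%; over all X peaks the share was 1.19%, so this count does not set them apart.

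Each replicate's own list was then asked whether shared promoters were over-represented at its top. Of the 1000 strongest autosomal peaks, 5.80%, 4.10%, 11.0% and 9.30% lay in shared promoters in replicates 1 to 4, against 3.33%, 3.50%, 5.001% and 4.14% of the rest. The share at the top was higher in 4 of 4 replicates, by 3.56 ± 2.48 percentage points (SD, n = 4), but only by 0.596 in replicate 2. With a promoter window of 500 bp the mean difference was 2.03. A two-sided exact permutation test that flips the sign of each replicate's difference gave p = 0.13, the smallest that 4 replicates allow, and 0.208 after Benjamini-Hochberg adjustment over 5 tests, so it could not pass 0.05. Single-gene promoters made up 26%, 26.3%, 33% and 33.1% of the top and 24.5%, 24.9%, 27.97% and 26.01% of the rest.

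Ranks within the replicates were uneven. The median percentile of shared-promoter summits was 51.1, 51.4, 60.5 and 58.8 in replicates 1 to 4. For single-gene promoters it was 51.3, 50.5, 52.7 and 52.2, and outside promoters 49.4, 49.7, 48.2 and 48.6. Shared promoters were therefore 7.78 and 6.54 points above single-gene promoters in replicates 3 and 4, and within 1 point of them in replicates 1 and 2. The mean difference was 3.75 ± 3.99 (SD, n = 4, higher in 3 of 4, exact permutation p = 0.25, adjusted 0.313), a difference no larger than the spread between replicates. With one summit per set of genes it was 1.88 (higher in 2 of 4, exact permutation p = 0.625), and without replicate 3 it was 2.41. Against summits outside promoters it was 6.47 ± 5.59 (SD, n = 4, higher in 4 of 4, exact permutation p = 0.13, adjusted 0.208).

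**Figure D3:**
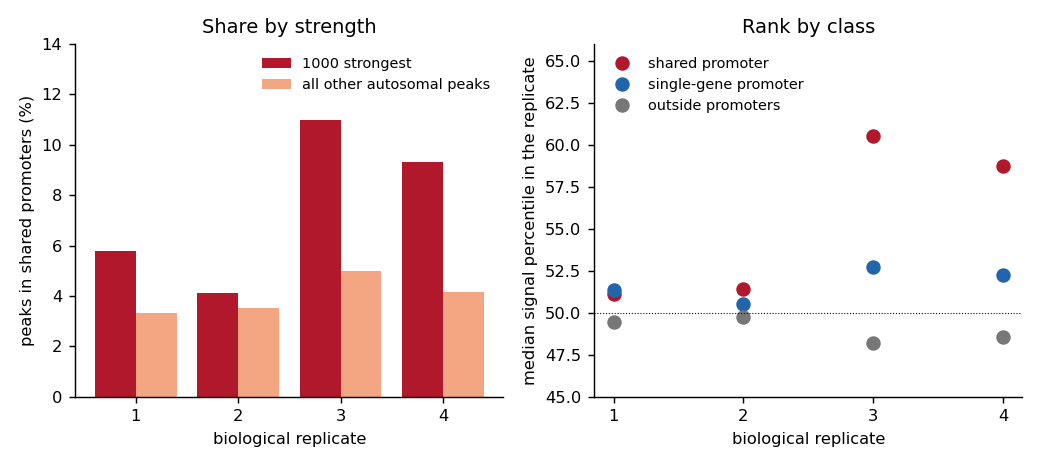
Left, percent of peaks in shared promoters among the 1000 strongest autosomal peaks of each replicate (dark bars) and among all its other autosomal peaks (light bars). Right, median signal percentile within each replicate (the axis starts at 45) of summits in shared promoters, in single-gene promoters and outside promoters; the dotted line is 50, and shared promoters reach 60.5 and 58.8 in replicates 3 and 4 but 51.1 and 51.4 in replicates 1 and 2.

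Support for single peaks was partial. The relaxed lists of replicates 1 to 4 overlapped 68.6%, 67.04%, 47.2% and 57.6% of the 443 peaks, at least 1 bp being required, and 3 peaks were overlapped by no replicate. The 1000 strongest of replicate 1 overlapped 55 of the 443 (12.4%, against 8.23% of all autosomal pooled peaks) and those of replicate 2 overlapped 38 (8.58% against 8.68%). Replicate 3 gave 69 (15.6% against 5%) and replicate 4 gave 59 (13.3% against 5.63%). Replicates 3 and 4 thus favoured shared promoters more than replicate 1 did, and in replicate 2 the share was at the background.

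No shared-promoter peak was among the 1000 strongest of all 4 replicates. Taking 3 counts as the most that a count of 0 allows, 0 of 443 is a share of up to 0.677%, and over all autosomal pooled peaks the share was 0.146%, so this count does not set the group apart. In at least 3 replicates it was 8 of 443 (1.81%), against 0.885% of single-gene promoter peaks and 0.578% outside. These 8 were rpl-15, tasp-1, rps-1, iff-2 and tag-340 of the thresholded peaks, together with sec-61.G and F32D8.13, tub-2 and Y71G12A.5, and F40F11.3 with mig-38. The last of these ranked 392, 497 and 277 in replicates 2, 3 and 4, but only 1774 in the pooled list (signal 24.1). Without replicate 2, 6 of the 443 peaks (1.35%) were in the 1000 strongest of replicates 1, 3 and 4, against 0.664% of single-gene promoter peaks and 0.296% outside promoters.

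Most shared promoters were head to head. Of the 443 peaks, 390 (88.0%) lay before genes on opposite strands and 53 before genes on one strand only; 414 served 2 genes and 29 served 3 or more, 872 genes in all. The summit was close to a start, at a median of 138 bp (quartiles 69 to 255) from the nearest, against 362 bp (133 to 686.5) for single-gene promoters; the rule itself favours short distances, so this is a description. Facing starts of head-to-head pairs were a median of 607 bp apart (quartiles 376 to 893.5, at most 1761). In 276 of the 390 (70.8%) the summit lay between the starts, and in 43.1% of these 276 it fell in the middle part when the gap is cut in 3 equal lengths. By annotation 253 summits lay between genes, 131 in an exon and 59 in an intron, and 55, 14 and 8 of these were among the 1000 strongest.

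Head-to-head and same-strand promoters had like ranks. Among the 1000 strongest pooled peaks were 68 of 390 head-to-head peaks (17.4%) and 9 of 53 same-strand peaks (16.98%), and the median percentiles were 57.8 and 57.6. In the replicates' own lists the difference was 3.74, -4.85, -5.35 and 2.65 percentile points, a mean of -0.95 ± 4.81 (SD, n = 4, exact permutation p = 0.75, adjusted 0.75). Its sign changed with the processing, so no direction is given. All 8 thresholded peaks were head to head. The 0 of 53 same-strand peaks allows a share of up to 5.66%, taking 3 counts as the limit, or 6.72% by the exact interval. The 29 peaks before 3 or more genes had a median percentile of 76.2, against 57.3 for the 414 before 2 genes. Among the 1000 strongest were 6 of the 29 (20.7%, interval 7.99 to 39.7), 17.1% of the 414 and 9.76% of all autosomal peaks.

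Narrow head-to-head promoters ranked higher in the pooled list. With up to 300 bp between starts the median percentile was 72.0 (64 peaks, 23.4% among the 1000 strongest), from 300 to 600 bp it was 63.7 (124 peaks, 20.97%), from 600 to 1000 bp 53.1 (123 peaks, 13.01%) and above 1000 bp 47.9 (76 peaks, 13.2%). This order was not seen in every replicate's own list. There, promoters up to 600 bp wide had medians of 51.8, 50.1, 60.6 and 63.0 in replicates 1 to 4 and wider ones 51.3, 51.4, 60.3 and 57.5, a difference of several points in replicate 4 only. The 8 thresholded peaks had gaps of 346 to 1423 bp, a median of 776.5 bp, and so were not the narrowest.

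**Figure D4:**
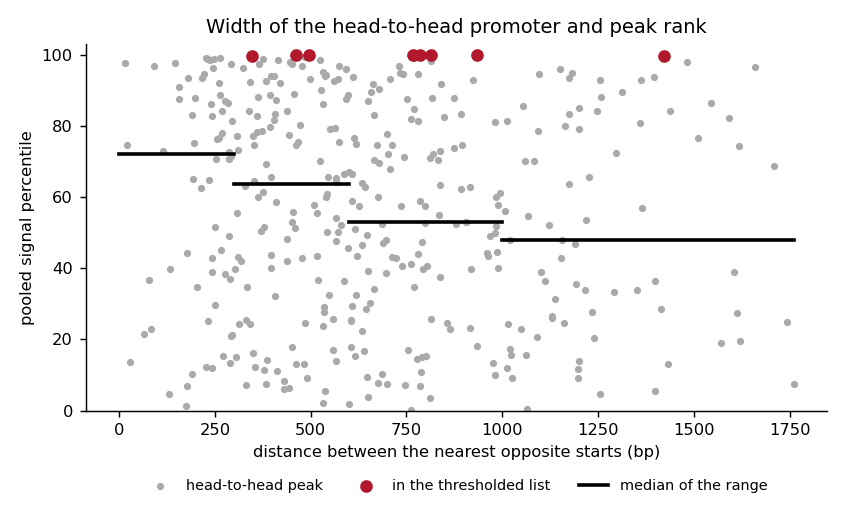
Pooled signal percentile of each head-to-head peak against the distance in bp between its nearest facing starts; dark horizontal lines are the medians of the 4 ranges of width, from 72.0 for the narrowest to 47.9 for the widest. The 8 peaks of the thresholded list (large points) lie between 346 and 1423 bp.

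Peaks just inside and just outside the window limit were compared as a description. The 36 peaks that would be lost with a window of 900 bp had a median percentile of 56.0, and 5 were among the 1000 strongest. The 44 peaks that would join with 1100 bp had a median percentile of 46.8, and 4 were among the 1000 strongest. Neither group held a thresholded peak.

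Among the 16 lists, cytosolic ribosomal protein genes had the highest share of genes with a shared-promoter peak. Of 81 autosomal genes for cytosolic ribosomal proteins, 30 had a shared-promoter peak (37.0%), against 872 of 17242 autosomal protein-coding genes (5.06%). Such genes also share promoter windows more often, 62 of 81 against 38.9% of all genes. Counted over genes with such a window, 48.4% of the ribosomal protein genes had a peak there and 13.01% of all genes. These 30 genes were served by 27 strongest peaks, with a median percentile of 81.1, of which 11 were among the 1000 strongest and 3 were thresholded, at rpl-15, rps-1 and rpl-20; the same median over all genes was 58.7. Below these came rpl-12, rps-18 with sec-61.A (35.0), rps-19 with hsr-9 (33.7) and rps-28 with Y41D4B.4 (29.4), and the lowest was rpl-4 (17.01).

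The ribosomal protein peaks did not lie nearer to the ribosomal gene as a rule. In 26 of the 27 the other gene was of another kind, and the summit was nearer to the ribosomal protein start in 13 of these 26. Without the 31 shared-promoter peaks at ribosomal protein genes, 66 of the other 412 were among the 1000 strongest (16.02%, interval 12.6 to 19.9) and 5 were thresholded (1.21%, interval 0.395 to 2.81). Both remain above the autosomal values of 9.76% and 0.547%, though the second interval holds 0.547. This split was chosen after the values were seen. Single-gene promoter peaks at ribosomal protein genes had a median percentile of 78.9 (16 peaks), beside 79.97 for the 31 shared ones.

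The other lists of broadly expressed genes had shares of 6.49% to 18.97%, each above the 5.06% over all genes. Counted over genes that share a promoter window, the order changed for histones, at 7.25% against 13.01% of all genes. By that count the rest of these lists had 18% to 29.7%. Mitochondrial ribosomal proteins had a shared-promoter peak at 8 of 70 genes, with a median percentile of 82.1 and 3 peaks among the 1000 strongest, at mrpl-12 (signal 29.2), mrpl-45 (28.5) and mrps-10 (27.6). Translation factors and tRNA synthetases had 12 of 70 genes and a median of 61.04, with iff-2 thresholded, followed by ears-2, a mitochondrial glutamyl-tRNA synthetase (31.4), and eef-1A.1, elongation factor 1-alpha (28.7), which shares its promoter with rfc-4. Proteasome, ubiquitin and chaperone genes had 22 of 116 and a median of 76.4, led by hsp-60, the mitochondrial chaperonin, facing Y22D7AL.10, annotated as a mitochondrial heat shock protein of 10 kDa (34.7), and by rpt-4 of the proteasome (30.7). Vesicle traffic and secretion had 14 of 92 and a median of 83.4, with 6 among the 1000 strongest; its 1 thresholded peak was that of tim-1, which is annotated as a timeless homolog and not as a traffic gene.

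Energy metabolism (11 of 81 genes, median 55.7), splicing and RNA processing (10 of 69, 39.98), transcription machinery (11 of 74, 67.2) and cell division (9 of 82, 66.5) had 0 thresholded peaks, as did histones (5 of 77, 3 peaks, median 96.9). Their highest were dld-1, dihydrolipoyl dehydrogenase (27.01), nol-10, mdt-9 (36.7), orc-1 and his-35. Over all autosomal peaks the thresholded share was 0.547%, so a count of 0 over so few peaks does not set these lists apart. RefSeq describes mdt-9 as a guanine nucleotide exchange factor and gives Mediator complex subunit 9 to its neighbour Y62E10A.23, which shares the peak, so the place of mdt-9 among transcription genes rests on its name. In these lists 54.1% to 89.6% of the genes share a promoter window, against 38.9% of all genes.

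In the tissue lists, the shares of genes with a shared-promoter peak lay on both sides of the 5.06% over all genes. Body wall muscle had 3 of 40 genes, 7.5% (unc-15, paramyosin, at 23.3; egl-19, a calcium channel, at 17.7; cap-2 at 17), with a median percentile of 24.8. Pan-neuronal genes had 1 of 144, 0.694% (nlp-33, signal 24.6), and homeobox and mesodermal regulators 1 of 97, 1.03% (ceh-38). RefSeq describes nlp-33 only as a neuropeptide-like protein, so its place among neuronal genes rests on its name. It is no evidence of a peak at a neuronal promoter. Cuticle and epidermis had 8 of 173, 4.62% (median 43.04, led by dpy-2 at 27.7), chemoreceptors 18 of 1217, 1.48% (median 54.03, 0 of 15 peaks among the 1000 strongest) and germline genes 4 of 109, 3.67% (led by nos-3 at 35.1 and puf-8 at 28.9). A promoter window is shared by 16.5% of the homeobox list, 19.4% of the pan-neuronal list, 27.5% of the muscle list and 55.0% of the germline list, against 38.9% of all genes. Counted over genes with such a window, 13.01% of all genes had a peak there. The share was 27.3% for muscle, which has only 11 such genes, and 14.3% for cuticle and epidermis. It was 6.67% for germline, 6.25% for homeobox, 5.68% for chemoreceptor and 3.57% for pan-neuronal genes. No promoter peak was found at unc-39, unc-119 or the head-to-head small heat shock genes of the hsp-16 group.

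Small RNA genes lay within 300 bp of 11 of the 443 summits. Their median percentile was 92.8. Of the 11, 6 were among the 1000 strongest (54.5%, interval 23.4 to 83.3, against 9.76% of all autosomal peaks). Of them 1 was thresholded (9.09%, interval 0.23 to 41.3, against 0.547%). They included C33A12.3 and C33A12.4 beside smy-1 and smy-2 (39.2), F55A11.6 and F55A11.11 beside F55A11.10 (36.5), klc-1 and let-70 beside M7.15 (33.8), and a pair of peaks at gcy-33 and cpr-9 (27.8 and 16.6). The F55A11.6 peak ranked 30 and 52 in replicates 3 and 4 and 23042 and 16912 in replicates 1 and 2. Without these 11, the other 432 had 7 thresholded peaks (1.62%), 71 among the 1000 strongest (16.4%) and a median percentile of 57.4.

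Strong shared-promoter summits were richer in G and C. Mean GC within 50 bp of the summit was higher by 3.27, 3.63, 3.05 and 2.89 percentage points in the 1000 strongest of replicates 1 to 4 than in that replicate's other shared-promoter summits. The mean difference was 3.21 ± 0.32 (SD, n = 4, higher in 4 of 4, exact permutation p = 0.13, adjusted 0.208), where the design cannot go lower. Within 150 bp of the summit the difference was 1.83, and for the 500 strongest it was 4.82. It was not limited to shared promoters, since single-gene summits averaged 41.1% at the top and 37.7% in the rest, and summits outside promoters 40.8% and 38.1%. In the pooled list the 8 thresholded peaks had 51.5% in the 51 bp at the summit and 54.7% in the window centred 50 bp to its right on the plus strand. Their GC fell to 31.1% at 150 bp on one side and 32.1% on the other.

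**Figure D5:**
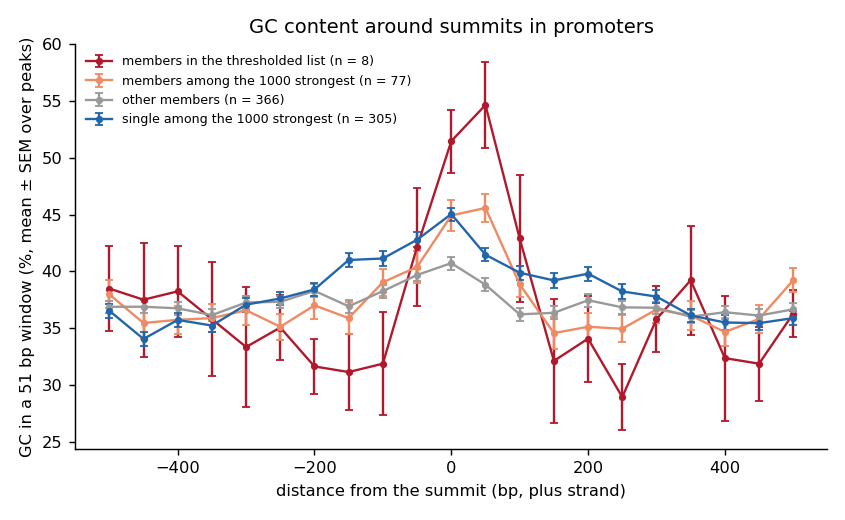
Mean GC content in 51 bp windows against distance from the summit on the plus strand, with bars of 1 standard error over peaks, for the 8 thresholded and the 77 strongest shared-promoter peaks (which include the 8), the other 366, and the 305 single-gene promoter peaks among the 1000 strongest. At the summit the means were 51.5%, 44.9%, 40.7% and 45.05%.

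Short words were counted within 50 bp of the summit on both strands. ACGCAG was found at 14 of the 77 strongest shared-promoter peaks (18.2%), at 22 of the other 366 (6.01%) and at 4.32% of all autosomal summits. ACACGC was found at 12 of 77 (15.6%), 14 of 366 (3.83%) and 2.40%, and CGTCTC at 10 of 77 (12.99%), 18 of 366 (4.92%) and 5.59%. In windows centred 300 bp to either side of the 77 summits, each of the 3 words was present in 3.25% on average. Among the 305 strong single-gene summits the shares were 8.52%, 7.21% and 12.1%, so the higher shares of ACGCAG and ACACGC at shared promoters are described without a test. CCTGCG was at 2.60% of the 77, 3.01% of the 366 and 1.74% of all autosomal summits.

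In the replicates' own shared-promoter summits the words were uneven. ACGCAG occurred in 15.5%, 0%, 11.8% and 13.98% of those in the 1000 strongest of replicates 1 to 4, and in 3.90%, 3.71%, 5.66% and 5.96% of the others. ACACGC occurred in 15.5%, 7.32%, 10% and 6.45% against 2.47%, 2.72%, 5.45% and 4.08%. CGTCTC occurred in 13.8%, 0%, 10.9% and 6.45% against 5.33%, 4.08%, 5.25% and 4.60%. In replicate 2 that top group held 41 peaks, and 0 of them carried ACGCAG or CGTCTC.

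The word ATACACT, picked from the printed sequences, was found at 6 of the 77 (7.79%), 4 of which were the printed peaks, at 5 of the other 366 (1.37%) and at 1.14% of all autosomal summits. In the 305 strong single-gene summits it was at 6 (1.97%). The shares of SIX-type motifs were no higher at the 77 than over all autosomal summits. TGATAC, a SIX-type word, was at 2 of the 77 (2.60%), 12 of the 366 (3.28%) and 3.24% of all autosomal summits. In windows centred 300 bp to either side of these summits its shares were 2.60%, 1.78% and 3.15%. TCAGGTTTC, the MEF3-type site, was at 0 of 77, 1 of 366 and 0.0976% of all autosomal summits. Of the other words counted, TATAAA was at 3.90% of the 77 and 9.84% of the 366, GAGAGA at 12.99% and 8.74%, TTTTTTT at 20.8% and 16.7%, and CACCTG at 1.299% and 1.64%. Over all autosomal summits these words were, in the same order, at 6.85%, 9.39%, 12.7% and 3.53%. At the 305 strong single-gene summits they were at 8.20%, 18.7%, 14.1% and 4.26%, so GAGAGA was less frequent at the 77 than there. A word in the window is no evidence of binding, and a missing word says only that these letters are not there.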

How the data were processed

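The files were narrowPeak lists on ce11, deposited by the authors: a relaxed list per replicate, a pooled relaxed list and a thresholded list. Per the deposited README files, the lists were made from alignments with a control, and the thresholded list from the others by irreproducible discovery rate. The aligner, caller, versions and threshold were not given in the sources used here, and the control experiment was not analysed here. The authors' deposited signal value ranks peaks within a list, and the deposited q-value column was taken, as narrowPeak files use it, as −log10 of q. Lists on ce10 were not used.

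Summits were placed against transcript starts of Ensembl release 115 (WBcel235). Coordinates are 1-based, and 0 peaks ended beyond a chromosome. Gene descriptions come in part from the RefSeq annotation of the same assembly. Percentiles and ranks were computed within the autosomal peaks of a list. Ties took the average for percentiles and the order of the list for ranks. The replicate was the unit of the 5 two-sided exact permutation tests, which measure only the spread between these 4 samples; counts over peaks received no test. Python 3.11.15, numpy 2.4.6, pandas 2.3.3, scipy 1.17.1 and matplotlib 3.10.9 were used, and the gene assignment was tested on simulated summits.

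The members, the 16 gene lists and the words searched were chosen with earlier results of these data known. Named genes were those of the thresholded members, of the 20 members with the highest signal, up to 4 per list in order of signal, and unc-39, unc-119 and the hsp-16 genes; further names were chosen after their values were seen. Alternatives were the promoter window, coding transcripts only, the depth of the top group, overlap, GC window, a stricter threshold, one summit per gene set, small RNA genes left out and each replicate left out.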

Additional observations from a re-analysis of the deposited data

Results flagged for a closer look

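Among 15 sets of 4 replicate values, 5 had a replicate that stood far from the other values, by the gap to its neighbour as a share of the range. All 5 were ranks of a thresholded shared-promoter peak, a skewed measure, and chance flags about 1 in 20 such sets. Replicate 2 was the far value in 4 of them: rank 1951 at rpl-15 and K11H12.8, 23016 at rps-1 and ifet-1, 3377 at iff-2 and F54C9.14, and 5839 at tag-340 and nhl-2. Replicate 4 was the far value at tasp-1 and K01G5.10, with rank 6079. The sets at Y75B8A.23 and rpl-20, where a replicate had no overlapping peak, could not be examined this way.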

How the results depend on the processing

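No paired analysis was possible because there is 1 group. Over 9 results, 89 alternatives gave a value. The number of peaks and the shares of peaks that were thresholded, among the strongest or supported by a replicate have no direction, so they could not reverse. Of the 89, 77 kept their direction or, where there is none, were classed as the same, and 9 of these 77 moved by over 1.5 times. The latter were the top share difference of 3.56 points (2.03 with a window of 500 bp), the rank above single-gene promoters of 3.75 (2.20 with 2000 bp, 1.88 with one summit per gene set, 2.41 without replicate 3), the GC difference of 3.21 (4.82 for the 500 strongest, 1.83 within 150 bp), and head-to-head against same-strand promoters with coding transcripts only (-0.47) and without replicate 1 or 4. The number of peaks, 443, was 207 with a window of 500 bp and 1060 with 2000 bp. The share among the strongest pooled peaks, 17.4%, was 9.71% for the 500 strongest and 28.7% for the 2000 strongest, and the mean share supported by a replicate, 12.5%, was 8.24% and 18.5%, since these groups are smaller and larger by construction. The difference between head-to-head and same-strand promoters, -0.95 percentile points, changed sign to 1.26 with a window of 500 bp, to 4.20 with 2000 bp, to 0.0661 with one summit per gene set, and to 0.372 without promoters of ribosomal protein genes, an alternative chosen after seeing the data. Leaving out one replicate gave -2.52 to 0.515, positive without replicate 2 (0.348) or replicate 3; the cause was not tested. No permutation test could pass 0.05, at 0.13 with 4 replicates and 0.25 with 3, so the p-values say nothing of stability. Read depth is unknown, and the lists, which end at different numbers of peaks, limit what a rank of 1000 means in each.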
